A study of Mus musculus with 4 samples.

Results

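Lung endothelial cells of the Foxo1cKO PNX library were compared with those of the sham library, gene by gene. A cell entered the comparison when it held at least 500 detected genes, at most 10% mitochondrial UMIs (unique molecular identifiers, the counted transcript copies), at least 2 UMIs summed over Pecam1, Cdh5, Cldn5, Egfl7, Ramp2 and Tie1, and 0 UMIs of Ptprc, Epcam, Col1a1 and Col1a2. This left 4665 sham cells and 3811 Foxo1cKO PNX cells, 8476 of the 14854 cells that the same gate kept over all 4 libraries, out of 34683 cell barcodes. Levels are UMIs summed over the endothelial cells of a library and expressed as counts per 1000000 endothelial UMIs (CPM).

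The study sequenced single mouse lung cells that had been enriched with magnetic beads, first by removing CD45-positive cells and then by keeping cells that carry CD31, a surface marker of endothelium. Sham mice were wild type and had no lung tissue removed, while the 3 other libraries came from mice on day 7 after PNX (pneumonectomy): wild-type mice (WT PNX), conditional knockouts of Foxo1 (Foxo1cKO PNX) and mice of a conditional knockout labelled M3 (M3cKO PNX). Neither the gene behind M3, nor the Cre driver of either knockout, nor how many mice of what age and strain made up each library is given in the sources used here. Foxo1cKO PNX therefore differed from sham in both surgery and genotype, which cannot be told apart within this comparison. WT PNX and M3cKO PNX levels are set beside it, and every ratio to sham shares the 1 sham library.

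FOXO1 is a forkhead transcription factor that growth factor signalling through PI3K and AKT moves out of the nucleus. In endothelium it is known to hold cells in a quiescent, low-growth state, with slow cell division and restrained metabolism. After pneumonectomy the remaining lung grows, and its capillary endothelium proliferates and supplies signals to the epithelium.

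Each group was 1 library, so no test across animals was possible and no p-value is given. Intervals are exact 95% intervals for counting error only, and differences are described by fixed rules of size. The endothelial sums held 10493693 UMIs for sham, 13691550 for WT PNX, 6492399 for M3cKO PNX and 12346381 for Foxo1cKO PNX, and the median cell held 1841 UMIs in sham and 2474 in Foxo1cKO PNX. Of the cells with 2 or more endothelial UMIs, 6.12% in sham and 20.4% in Foxo1cKO PNX were left out for a UMI of Ptprc, Epcam, Col1a1 or Col1a2. Y-only cells, in which a Y-linked gene but not Xist was detected, numbered 1196 in sham and 574 in Foxo1cKO PNX, and Xist-only cells, the reverse, numbered 0 and 932, so sex was a further difference between the libraries. WT PNX held 798 Y-only and 938 Xist-only cells and M3cKO PNX 761 and 0, so M3cKO PNX was like sham, and WT PNX like Foxo1cKO PNX, in this respect as well. The 2 libraries had 68 cell barcodes in common.

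Foxo1 (ENSMUSG00000044167, chromosome 3, 52268336 to 52353221 on the plus strand of GRCm38) was measured at 196 CPM for sham, 208 for WT PNX, 185 for M3cKO PNX and 70.1 for Foxo1cKO PNX. The Foxo1cKO PNX level was 2.80-fold (2.58 to 3.03) below sham, and the other 3 libraries lay close together. Counted reads can come from outside the deleted stretch, so this level is not a measure of how many cells kept an intact gene. Foxo1 was lower in each class of cluster (groups of transcriptionally similar cells named from marker genes). It stood at 59.1 CPM in sham and 12.4 in Foxo1cKO PNX in aerocyte-like cells, the capillary cells specialised for gas exchange. The values were 375 and 198 in venous-like cells, 482 and 139 in arterial-like cells, and 317 and 13.3 in lymphatic-like cells, where the second value rested on 3 UMIs. In the Foxo1cKO PNX library the level was 127 CPM (113 to 142) in Y-only cells and 37.0 (31.0 to 43.7) in Xist-only cells. In WT PNX the same 2 kinds of cell were at 212 and 218 CPM. With Y-only cells alone in both libraries, Foxo1 was at 180.5 CPM in sham and 127 in Foxo1cKO PNX, a log2 ratio of -0.49 in place of -1.42 (log2 ratios here carry a pseudocount of 5 CPM).

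**Figure D1:**
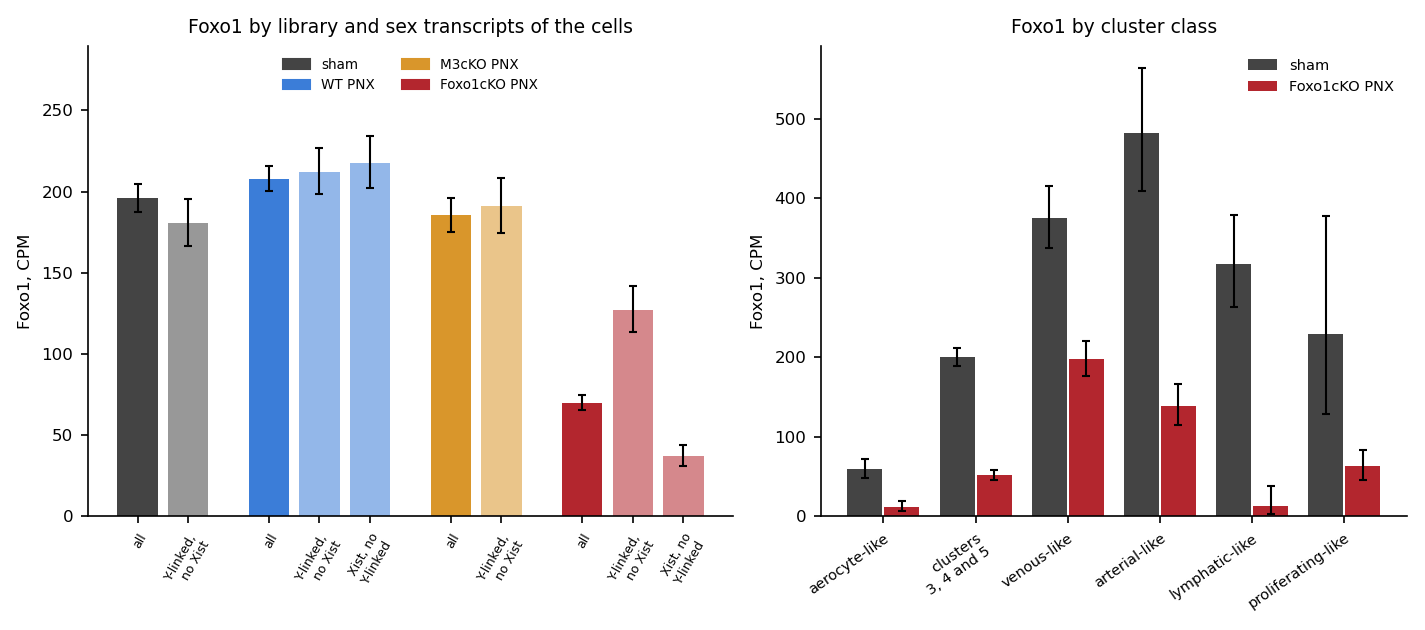
Foxo1 level in CPM (vertical axes, linear from 0), by library and by sex transcripts of the cells on the left, and by cluster class in sham and Foxo1cKO PNX on the right. Bars are library or class sums and lines are exact 95% Poisson intervals for counting error. In each class the Foxo1cKO PNX bar lies below the sham bar, and within that library Y-only cells lie at 127 CPM against 37.0 in Xist-only cells.

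Of 3995 genes that reached 50 CPM in either library, 89 (2.23%) were at least 2-fold higher and 87 (2.18%) at least 2-fold lower in Foxo1cKO PNX than in sham. At the looser rule used for members of gene lists below, 1.5-fold with 10 CPM in either library, 949 of 9110 genes (10.4%) were higher and 635 (6.97%) lower, and the median log2 ratio over these genes was 0.05. The genes described first are from the 14 with the largest ratio in each direction that also differed by 1.5-fold or more in the same direction within general capillary-like and within aerocyte-like cells. Genes over 5 times as high in cells gated as immune, epithelial or fibroblast were left out of them. No minimum level was set within general capillary-like or aerocyte-like cells, so for genes low there that condition rested on few UMIs. In aerocyte-like cells of sham and Foxo1cKO PNX, Prc1 was at 0 and 1.46 CPM, Cdk1 at 0 and 2.18, and Mki67 at 0.597 and 4.37. A library sum cannot tell fewer cells of a type from less RNA per cell.

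**Figure D2:**
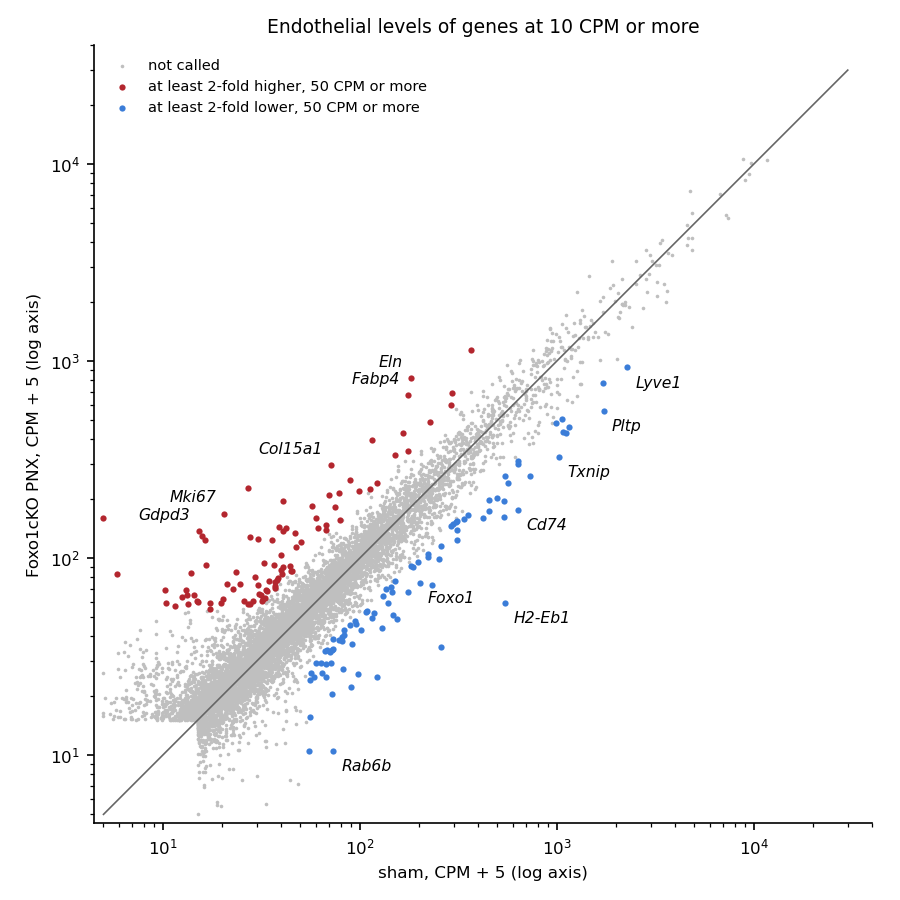
Level of each gene at 10 CPM or more, in sham (horizontal) and Foxo1cKO PNX (vertical), both as CPM plus 5 on log axes, with the line of equal levels. The 89 genes at least 2-fold higher are red and the 87 at least 2-fold lower are blue. Most genes lie along the line, and H2-Eb1 and Rab6b lie farthest below it among the named genes.

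Gdpd3, a lysophospholipase D of the glycerophosphodiester phosphodiesterase family, led the genes that were higher. It was measured at 10.2 CPM for sham, 37.4 for WT PNX, 11.4 for M3cKO PNX and 132 for Foxo1cKO PNX, 12.9-fold (10.6 to 15.9) above sham. M3cKO PNX lay with sham, WT PNX lay between, and Foxo1cKO PNX was highest. Aerocyte-like cells held 7.16 CPM in sham and 224 in Foxo1cKO PNX, against 14.7 and 105 in clusters 3, 4 and 5. Clusters 3 and 5 were general capillary-like, and cluster 4, with 158 sham and 1275 Foxo1cKO PNX cells, was left unnamed. Its 50 leading genes held 2 arterial and 2 general capillary markers, and a name needed at least 3 of a class. Cells of the Foxo1cKO PNX library gated by Ptprc, the CD45 gene, held 329.6 CPM of Gdpd3, and the part of such cells in the endothelial value was not tested. Hebp1, a haem-binding protein, was at 5.24, 29.8, 78.9 and 64.1 CPM in the same order of libraries, 12.2-fold (9.31 to 16.4) above sham. Hebp1 was lowest in sham and high in both knockouts. Mest, an imprinted gene of the alpha/beta hydrolase family, was at 35.8, 160, 80.7 and 132 CPM, 3.68-fold (3.28 to 4.12) above sham, with 92.5 and 353 CPM in aerocyte-like cells of sham and Foxo1cKO PNX.

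Ppbp and Pf4, chemokine genes typical of platelets and megakaryocytes, were also among the 14. Ppbp was at 22.1 CPM for sham, 238 for WT PNX, 322 for M3cKO PNX and 222 for Foxo1cKO PNX, and Pf4 at 10.8, 174, 92.6 and 124. All 3 PNX libraries were above sham. The 8 platelet markers summed to 43.6 CPM in sham and 428 in Foxo1cKO PNX, and 3 of the 5 that reached 10 CPM did so in Foxo1cKO PNX alone. A cluster led by Ppbp and Pf4 held 9 sham cells and 33 Foxo1cKO PNX cells, and Pf4 had a log2 ratio of 1.12 in place of 3.03 without it and 2 other small clusters led by blood cell or airway genes.

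H2-Eb1 had the lowest log2 ratio of the leading genes (-3.20). It encodes a beta chain of MHC class II and was at 541 CPM for sham, 60.8 for WT PNX, 373 for M3cKO PNX and 54.3 for Foxo1cKO PNX, 9.95-fold (9.18 to 10.8) below. Rab6b, a small GTPase of Golgi traffic, was at 68.5, 6.72, 50.5 and 5.51 CPM in the same order, 12.4-fold (9.69 to 16.2) below sham. For both genes WT PNX and Foxo1cKO PNX were low, and M3cKO PNX was nearer to sham, the same grouping as for Xist-only cells. With Y-only cells alone in sham and Foxo1cKO PNX, the H2-Eb1 log2 ratio was -2.35 and the Rab6b log2 ratio -2.81. Cyp26b1, an enzyme that breaks down retinoic acid, differed from these in that all 3 PNX libraries were low. Its levels were 50.4, 6.14, 3.39 and 5.43 CPM, and Foxo1cKO PNX was 9.29-fold (7.19 to 12.2) below sham. Of the classes compared, arterial-like cells had the highest level of Cyp26b1, 199 CPM in sham and 22.7 in Foxo1cKO PNX.

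Pltp, the phospholipid transfer protein of plasma lipoproteins, was the most abundant of the lower genes, at 1725 CPM for sham, 676 for WT PNX, 1059 for M3cKO PNX and 553 for Foxo1cKO PNX, 3.12-fold (3.04 to 3.21) below sham. Plpp1, a membrane lipid phosphatase, was at 537, 196, 528 and 189 CPM, with M3cKO PNX at the level of sham. Cx3cl1, the membrane-bound chemokine fractalkine, was at 125, 43.7, 80.7 and 39.0 CPM and 3.21-fold (2.89 to 3.57) below sham. Ptpru, a receptor tyrosine phosphatase, was at 62.4, 28.6, 35.6 and 19.8 CPM, and Rnaset2b, a ribonuclease with a close copy in the mouse genome, at 93.2, 24.98, 66.1 and 20.8 CPM. In each of these 5 genes Foxo1cKO PNX was the lowest library and WT PNX the next lowest.

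**Figure D3:**
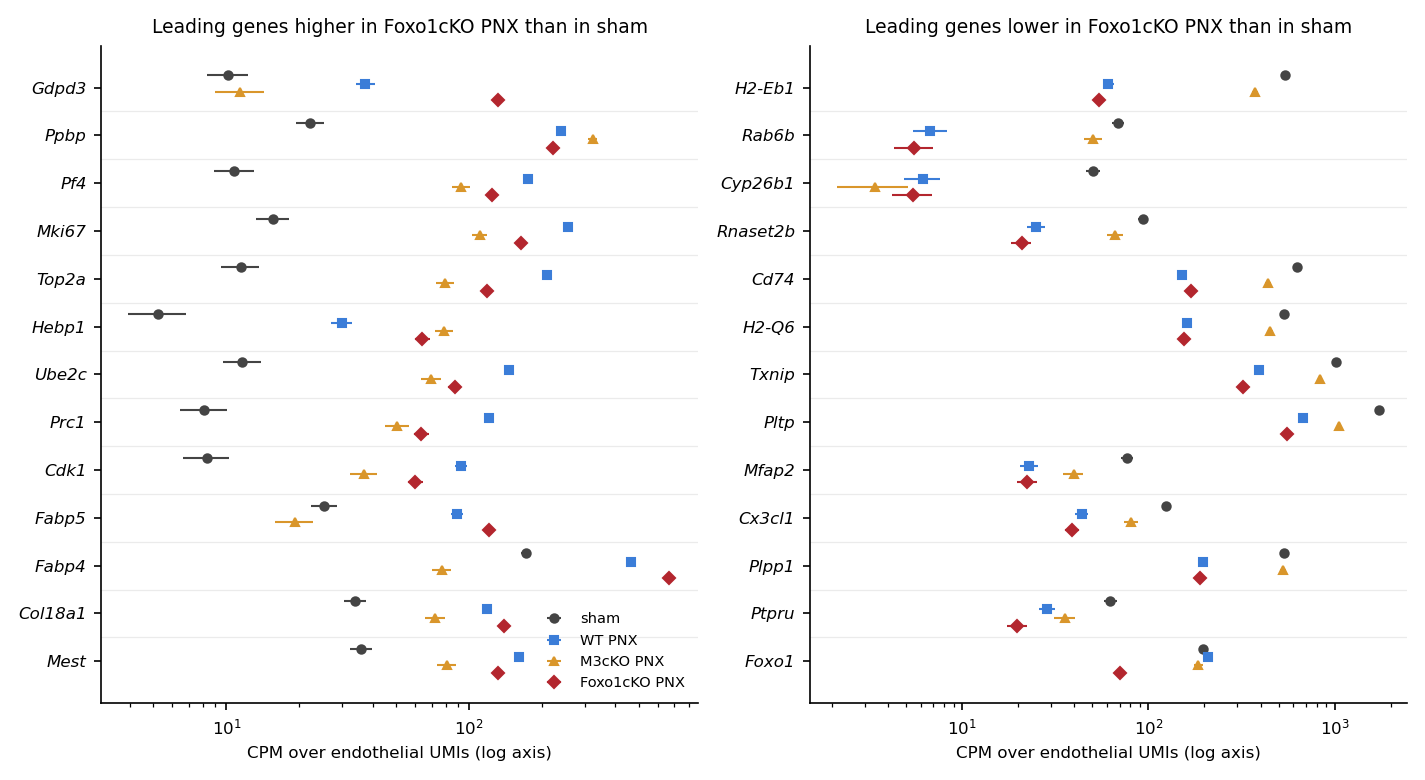
Levels of leading higher genes (left) and leading lower genes (right), 13 in each direction, in the 4 libraries, in CPM on a log axis with exact 95% Poisson intervals. Foxo1cKO PNX (diamonds) and WT PNX (squares) lie on the same side of sham (circles) for each gene except Foxo1, and M3cKO PNX (triangles) lies nearer to sham for most of the lower genes.

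Genes reported as FOXO targets were followed as a list of 45, of which 44 were in the files and 39 reached 10 CPM. Of the 39, 13 were at least 1.5-fold lower and 2 higher, with a median log2 ratio of -0.21 beside 0.05 over all genes measured. Txnip, which binds thioredoxin and limits glucose uptake, was at 1021 CPM for sham, 391 for WT PNX, 835 for M3cKO PNX and 321 for Foxo1cKO PNX, 3.18-fold (3.06 to 3.30) below sham. Klf9, a Kruppel-like repressor, was at 492, 249.9, 457 and 197 CPM, 2.495-fold (2.38 to 2.62) below sham. Tsc22d3, which encodes the glucocorticoid-induced leucine zipper, was at 247, 111, 369 and 93.5 CPM. For these 3 genes Foxo1cKO PNX was lowest, WT PNX next, and M3cKO PNX near or above sham. Each was also lower in aerocyte-like cells, with log2 ratios of -1.55 for Txnip, -1.12 for Klf9 and -1.17 for Tsc22d3.

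Angpt2, the destabilising ligand of the TIE2 receptor, was at 25.6 CPM for sham, 18.1 for WT PNX, 14.02 for M3cKO PNX and 7.94 for Foxo1cKO PNX, 3.23-fold (2.55 to 4.11) below sham. Esm1, a secreted proteoglycan of tip cells, was at 38.8, 33.5, 20.6 and 17.0 CPM, and the insulin-like growth factor receptor gene Igf1r at 148, 91.4, 85.5 and 85.1. Angpt2 and Esm1 were lower in both knockouts than in WT PNX. Klf4 was 1.61-fold and Klf6 1.70-fold below sham. The 2 higher members were Bcl6, a transcriptional repressor, and Ccn1, a matricellular protein, the latter at 222, 364, 344 and 485 CPM. In Ccn1 all 3 PNX libraries were above sham. The list had a median log2 ratio to sham of -0.19 in WT PNX, where Foxo1 was at 208 CPM, and of -0.11 in M3cKO PNX. In clusters 3, 4 and 5, which together held 3032 sham and 1815 Foxo1cKO PNX cells, 15 of 39 members were lower and 3 higher. Over all 8706 genes measured in those clusters, 604 were lower and 881 higher.

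The forkhead core motif GTAAACA, searched on both strands in the 300 bases from 250 before to 50 after RefSeq gene starts of GRCm38.p6, was found in 1199 of 32851 promoters (3.65%) and for 1095 of 27025 genes. Of the FOXO list, 36 genes had such a promoter and 6 held the motif. Among genes at 50 CPM it was found for 7 of 65 that were at least 2-fold lower, for 0 of 60 that were higher and for 99 of 3167 in all. These counts describe letters in a window and not binding. The promoters of Txnip and Klf9 are shown because these were the listed genes past 1.5-fold whose promoter held the motif. They were also 2 of the 3 listed genes with the lowest log2 ratios at the pseudocount of 5 CPM. The motif is in capitals, with its first base 121 bases before the start of Txnip (chr3:96557707-96558006, plus strand) and 100 bases before that of Klf9 (chr19:23140976-23141275, plus strand).
Txnip: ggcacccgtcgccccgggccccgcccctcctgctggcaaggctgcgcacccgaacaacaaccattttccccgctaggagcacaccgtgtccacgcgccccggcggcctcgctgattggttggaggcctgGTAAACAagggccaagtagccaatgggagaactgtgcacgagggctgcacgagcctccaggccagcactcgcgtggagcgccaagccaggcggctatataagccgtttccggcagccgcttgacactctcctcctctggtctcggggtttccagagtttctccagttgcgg
Klf9: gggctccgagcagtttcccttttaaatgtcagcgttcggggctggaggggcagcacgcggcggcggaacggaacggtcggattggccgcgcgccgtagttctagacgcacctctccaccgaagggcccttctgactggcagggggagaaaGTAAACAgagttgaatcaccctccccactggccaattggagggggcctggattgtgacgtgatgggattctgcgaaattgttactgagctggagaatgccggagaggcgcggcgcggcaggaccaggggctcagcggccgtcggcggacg
Both motifs read GTAAACA on the strand of the gene.

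Cell cycle genes were higher in Foxo1cKO PNX than in sham. Mki67, the proliferation antigen Ki-67, was at 15.5 CPM for sham, 256 for WT PNX, 110.3 for M3cKO PNX and 163 for Foxo1cKO PNX, 10.5-fold (8.94 to 12.4) above sham. Top2a, which untangles DNA before division, was at 11.4, 209, 79.5 and 118 CPM, and the mitotic kinase Cdk1 at 8.29, 92.3, 36.8 and 60.02. Ube2c and Prc1, of mitotic exit and the spindle midzone, were 7.49-fold and 7.84-fold above sham. In all 5 genes sham was lowest, WT PNX highest, and Foxo1cKO PNX lay above M3cKO PNX. The 42 genes of the G2 and M phase summed to 399.7 CPM for sham, 2854 for WT PNX, 1403 for M3cKO PNX and 1894 for Foxo1cKO PNX, and the 37 genes of S phase and replication to 569, 1587, 962 and 1252. Of the 39 G2 and M phase genes that reached 10 CPM, 30 did so in Foxo1cKO PNX alone, so a count of higher members is fixed in part by the minimum. In aerocyte-like cells 4 of these genes reached 10 CPM, with 0 at least 1.5-fold higher and a median log2 ratio of -0.0081. A separate proliferating-like cluster, with 18 sham and 144 Foxo1cKO PNX cells, was not part of the aerocyte-like cells.

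Cells were scored as cycling when they held at least 2 UMIs over 10 cell cycle genes, Mki67 and Top2a among them. The share was 0.622% in sham (29 of 4665 cells, 0.417 to 0.892), 11.8% for WT PNX, 4.42% for M3cKO PNX and 7.66% for Foxo1cKO PNX (292 of 3811 cells, 6.84 to 8.55). Thinned to 2000 UMIs per cell, which left out 2654 sham and 1275 Foxo1cKO PNX cells, the shares were 0.845%, 11.8%, 5.95% and 7.97%. The order of the libraries was the same, with sham lowest and WT PNX highest. Within classes the share went from 0.160% in sham to 0.842% in Foxo1cKO PNX in aerocyte-like cells, with intervals that overlapped. It went from 0.165% to 3.42% in clusters 3, 4 and 5, and from 0.271% to 4.42% in venous-like cells. The proliferating-like cluster held 18 of the 29 cycling sham cells and 143 of the 292 cycling Foxo1cKO PNX cells. Shares of the other classes leave these cells out, and their vessel type was not tested. Among Y-only cells the share was 0.753% in sham and 11.1% in Foxo1cKO PNX. These cells were not thinned, and their medians were 2325 UMIs in sham and 3400.5 in Foxo1cKO PNX, so depth differed. Xist-only cells of Foxo1cKO PNX had a share of 9.12%. The inhibitor of cyclin-dependent kinases Cdkn1a was at 795, 475, 837 and 426 CPM, and the D-type cyclin gene Ccnd1 at 417, 594, 744 and 661. Foxo1cKO PNX was the lowest library for Cdkn1a and above sham for Ccnd1. Of 14 measured D cyclins and inhibitors, 5 were higher and 2 lower.

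**Figure D4:**
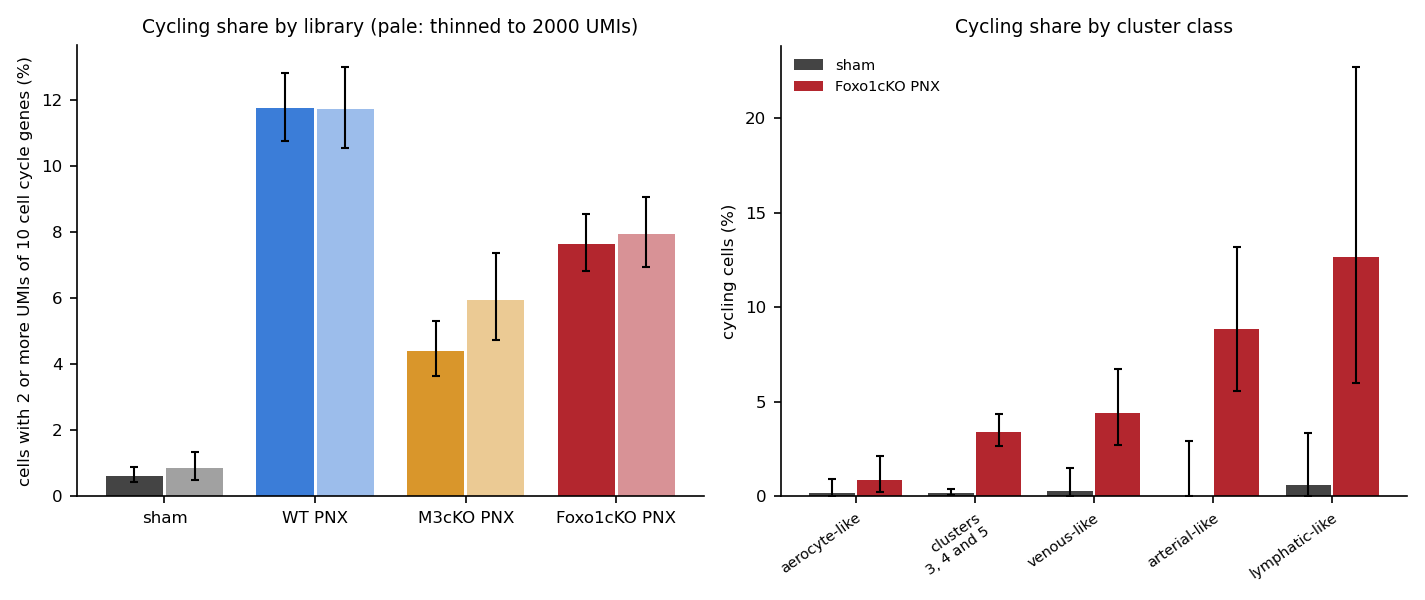
Percent of endothelial cells with 2 or more UMIs over 10 cell cycle genes, by library on the left (pale bars thinned to 2000 UMIs per cell) and by cluster class in sham and Foxo1cKO PNX on the right. Lines are exact 95% binomial intervals for counting error. The proliferating-like cluster, with 18 cycling sham cells and 143 cycling Foxo1cKO PNX cells, is not plotted on the right. Foxo1cKO PNX lies at 7.66%, above sham at 0.622% and below WT PNX at 11.8%, and aerocyte-like cells show the smallest share of the Foxo1cKO PNX classes plotted.

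Antigen presentation genes of MHC class II were lower as a list. Of 11 measured members, 7 were at least 1.5-fold lower and 2 higher, with a median log2 ratio of -0.96. Of the 11, 2 reached 10 CPM in Foxo1cKO PNX alone and 1 in sham alone, which fixes the counts in part. The 12 genes in the files summed to 3389 CPM for sham, 1231 for WT PNX, 2449 for M3cKO PNX and 1362 for Foxo1cKO PNX. Besides H2-Eb1, the invariant chain Cd74 was at 632, 152, 439 and 170.3 CPM in these libraries, 3.71-fold (3.53 to 3.90) below sham, with a log2 ratio of -0.84 in place of -1.86 when cells with UMIs of Ptprc, Epcam, Col1a1 or Col1a2 were kept. H2-DMa, of the peptide exchange factor, was at 42.3, 8.11, 16.3 and 9.31 CPM. H2-Ab1 and H2-Aa, the chains of the I-A molecule, were 2.10-fold and 1.96-fold below sham. WT PNX and Foxo1cKO PNX were the low libraries for all 5 genes. The 2 higher members, Ctss (a lysosomal protease) at 2.86 and 20.6 CPM and H2-DMb2, were over 5 times as high in cells gated by Ptprc, which in the sham library also held 1434 CPM of H2-Eb1 and 1338 CPM of Cd74. In clusters 3, 4 and 5 H2-Eb1 was at 805 CPM in sham and 63.7 in Foxo1cKO PNX. In aerocyte-like cells, whose class II levels were low, H2-Eb1 was at 43.0 and 10.9 CPM, while H2-Aa (69.2 and 85.2) and H2-DMa (1.19 and 2.91) were not lower in Foxo1cKO PNX.

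Class I genes divided. H2-Q6, H2-Q7 and H2-T23, non-classical class I genes, were at 532, 1143 and 1107 CPM in sham and at 156, 456 and 426 in Foxo1cKO PNX. H2-Q4 was at 292 and 144. H2-D1, a classical class I heavy chain, was the 1 member of 23 at least 1.5-fold higher, at 4752 CPM for sham, 6696 for WT PNX, 4116 for M3cKO PNX and 7291 for Foxo1cKO PNX. These genes are near-identical in parts of their sequence, and the division of reads among them is uncertain. Over the 23 genes the summed levels were 23427 CPM in sham and 21982 in Foxo1cKO PNX, with 6 members lower and a median log2 ratio of -0.24.

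Among interferon-stimulated genes the medians of Foxo1cKO PNX and WT PNX lay on different sides of sham. Of 41 measured members, 12 were higher and 3 lower in Foxo1cKO PNX, with a median log2 ratio of 0.24. Over the same genes and the same sham library, medians were -0.18 in WT PNX and -0.27 in M3cKO PNX. Of the 41, 3 reached 10 CPM in Foxo1cKO PNX alone and 1 in sham alone, which fixes the counts in part. Isg15, a ubiquitin-like modifier, was at 22.9 CPM for sham, 24.0 for WT PNX, 18.9 for M3cKO PNX and 53.3 for Foxo1cKO PNX, 2.33-fold (2.01 to 2.71) above sham. Rtp4, at 117, 126, 107 and 235 CPM, and the antiviral gene Ifit1, at 70.7, 66.8, 96.7 and 129.7 CPM, were picked after their values were seen. Foxo1cKO PNX was the highest library for all 3, and Isg15, Rtp4 and Ifit1 had log2 ratios of 1.32, 1.33 and 1.18 in aerocyte-like cells. The list median was 0.22 in aerocyte-like cells, 0.076 in general capillary-like cells, 0.064 in venous-like cells and 0.13 in clusters 3, 4 and 5. In the same order, medians over all genes measured were 0.041, 0.044, 0.037 and 0.065, so the list lay near them outside aerocyte-like cells. Gbp9, a guanylate-binding protein, was at 41.8, 115, 29.3 and 129.7 CPM, high in both WT PNX and Foxo1cKO PNX. The 3 lower members were Ifitm1, which was over 5 times as high in Ptprc-gated cells, Igtp and Gbp2, the last at 203 CPM in sham and 124 in Foxo1cKO PNX. Ifi27l2a, at 9.43 and 59.8 CPM, was likewise over 5 times as high in Ptprc-gated cells. The list sum, 18386 CPM in sham and 16663 in Foxo1cKO PNX, was opposite in direction to the median.

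Basement membrane and matrix genes were higher in number than lower. Of 42 measured members of 54, 18 were higher and 2 lower, with a median log2 ratio of 0.46. Of the 42, 4 reached 10 CPM in Foxo1cKO PNX alone and 1 in sham alone, which fixes the counts in part. The list summed to 9929 CPM for sham, 13598 for WT PNX, 12834 for M3cKO PNX and 14425 for Foxo1cKO PNX. Col4a1 and Col4a2, the main chains of basement membrane collagen, were the most abundant of those named, Col4a1 at 1448, 2130.1, 2195 and 2708 CPM and Col4a2 at 1262, 1713, 1942 and 2233. Both were lowest in sham and highest in Foxo1cKO PNX. Col15a1, a collagen of the basement membrane zone, was at 66.1, 279, 127 and 291 CPM, 4.40-fold (4.05 to 4.78) above sham. Col18a1, whose cleavage yields endostatin, was at 33.8, 119, 72.4 and 138 CPM, 4.09-fold (3.65 to 4.60) above sham. For Col15a1 and Col18a1 M3cKO PNX lay between sham and the other PNX libraries. Venous-like cells held 92.5 and 391 CPM of Col15a1 and 78.1 and 358 of Col18a1 in sham and Foxo1cKO PNX. The list median was 0.51 in venous-like cells, 0.089 in aerocyte-like cells and 0.17 in clusters 3, 4 and 5.

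Elastic fibre genes were led by Eln, the elastin gene, at 177 CPM for sham, 798 for WT PNX, 312 for M3cKO PNX and 816 for Foxo1cKO PNX. Fbln5, which guides elastin assembly, was at 110.0, 423, 120.0 and 394 CPM and Fbln2 at 52.4, 142, 43.7 and 179. WT PNX and Foxo1cKO PNX were the high libraries for all 3. In venous-like cells Eln was at 598 and 3926 CPM and Fbln2 at 31.9 and 321. Mfap2, a microfibril protein, went the other way at 76.7, 22.8, 39.6 and 22.3 CPM, 3.44-fold (2.9997 to 3.96) below sham. The elastic fibre median was 0.71 in venous-like cells and 0.32 in clusters 3, 4 and 5. In aerocyte-like cells it was -0.77 over 4 members, of which 1 was higher and 2 lower. Of the 42 measured matrix genes 11, and of the 13 elastic fibre genes 6, Eln among them, were over 5 times as high in cells gated as fibroblast, immune or epithelial. The 14 fibroblast markers summed to 75.1 CPM in sham and 166 in Foxo1cKO PNX, and 3 and 2 of them were at 0. Col3a1, a fibroblast collagen outside the gate, was at 8.96 CPM for sham, 30.7 for WT PNX, 3.23 for M3cKO PNX and 78.6 for Foxo1cKO PNX, and Fn1 at 24.3, 62.6, 26.3 and 75.0. Col3a1 was at 64.8 and 532 CPM in venous-like cells and at 3.15 and 8.56 in clusters 3, 4 and 5. The part of fibroblast RNA in these values was not tested. Of 17 measured genes of mesenchymal transition 10 were higher and 0 lower, but 7 of the 17 reached 10 CPM in Foxo1cKO PNX alone, which fixes the count in part. Of the same genes 10 were over 5 times as high in such other cells. In clusters 3, 4 and 5, where 7 of these genes reached 10 CPM, 2 were higher, with a median log2 ratio of 0.05.

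Of 29 measured lipid genes 13 were higher and 5 lower, with a median log2 ratio of 0.30, and 5 of the 29 reached 10 CPM in Foxo1cKO PNX alone. The list sum was lower, 6204 CPM in sham and 5387 in Foxo1cKO PNX. Fabp4 and Fabp5, fatty acid chaperones, were at 172 and 25.3 CPM for sham, 465 and 89.3 for WT PNX, 77.2 and 19.1 for M3cKO PNX, and 664 and 120.4 for Foxo1cKO PNX. M3cKO PNX was below sham and Foxo1cKO PNX highest for both. The level of Fabp4 differed widely between classes, with 651 and 1294 CPM in venous-like cells of sham and Foxo1cKO PNX and 6.29 and 9.91 in clusters 3, 4 and 5. With clusters weighted to their sham sizes the log2 ratio of Fabp4 was 0.29 in place of 1.92, and in aerocyte-like cells that of Fabp5 was 0.35 in place of 2.05. Scd2, a fatty acid desaturase, was at 54.6, 129, 33.3 and 154 CPM. Hmgcs1 and Insig1, of sterol synthesis and its feedback, were chosen after their values were seen, at 35.4, 64.3, 30.2 and 78.3 CPM and at 28.2, 54.0, 23.9 and 58.0. In Scd2, Hmgcs1 and Insig1 Foxo1cKO PNX was the highest library and M3cKO PNX was the lowest, and log2 ratios in aerocyte-like cells were 1.43, 1.104 and 1.104. The 5 lower members were Cd36, Gpihbp1, Pnpla2, Plin2 and Cpt1a. Cd36, a fatty acid transporter, was the most abundant of them at 3205 CPM in sham and 2136 in Foxo1cKO PNX.

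Markers of vessel types were read as library sums. Lymphatic genes were lower, 9 of 12 by 1.5-fold, with a median log2 ratio of -0.66. Among them Mmrn1 was at 149 and 43.9 CPM, Reln at 32.4 and 6.40, the chemokine Ccl21a at 634 and 294, and Lyve1, a hyaluronan receptor, at 2276, 1310.4, 3261 and 926 over the 4 libraries. Of the 12 lymphatic genes, 3 reached 10 CPM in sham alone, which fixes the count of lower genes in part. The lymphatic-like cluster held 164 sham and 71 Foxo1cKO PNX cells. Lyve1 was lower in other classes as well, at 1909 and 515 CPM in clusters 3, 4 and 5 and at 5214 and 2531 in venous-like cells. Of 18 arterial genes 8 were higher and 1 lower, with Gja5, a connexin of arteries, at 34.97, 70.0, 21.9 and 82.4 CPM. Of 18 venous genes 5 were higher and 1 lower, the latter the noradrenaline transporter Slc6a2 at 307, 158, 473 and 118 CPM. Slc6a2 was at 3145 CPM in venous-like cells of sham and 814 in those of Foxo1cKO PNX.

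Of 19 general capillary genes 6 were lower and 0 higher, and of 24 aerocyte genes 5 were lower and 1 higher. Within aerocyte-like cells 4 of the 24 aerocyte genes were lower and 2 higher. Over all 8459 genes measured in aerocyte-like cells, 868 were lower and 1013 higher. Of 22 aerocyte genes measured in clusters 3, 4 and 5 together, 8 were higher and 1 lower. The lipid droplet protein gene Hilpda was at 541, 231, 279.6 and 256 CPM and the receptor gene Glp1r at 988, 608, 457 and 479. Cyp4b1, a fatty acid hydroxylase, was at 1067, 339, 417 and 432 CPM, and at 2825 and 1379 in aerocyte-like cells of sham and Foxo1cKO PNX. In Hilpda, Glp1r and Cyp4b1 sham was above all 3 PNX libraries. The aerocyte gene Fibin was at 172 and 90.7 CPM. Cluster sizes are not compared, since leading genes of cluster 3, such as H2-Eb1, Pltp and Cyp26b1, were among those that differed between the libraries (2179 of the 2259 cells of cluster 3 came from sham and 1275 of the 1433 of cluster 4 from Foxo1cKO PNX).

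Of 19 measured adhesion genes of endothelium 6 were higher and 0 lower, and 3 of the 19, Sele among them, reached 10 CPM in Foxo1cKO PNX alone. Selp, which encodes P-selectin, was at 73.9 CPM for sham, 296 for WT PNX, 124 for M3cKO PNX and 209 for Foxo1cKO PNX, and Vcam1 at 70.1, 175, 105 and 177. Sele, which encodes E-selectin, was at 4.38, 28.8, 6.16 and 23.2 CPM. Sham was lowest for all 3. Within venous-like cells the gap was smaller, with Selp at 446 and 527 CPM and Vcam1 at 496 and 676.

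Stress genes did not move as 1 group. Of 28 immediate early genes 4 were higher and 4 lower over all endothelial cells, while in general capillary-like cells 17 of 27 were higher and 0 lower, with a median log2 ratio of 0.90. Over all genes measured in general capillary-like cells, 1015 of 8751 were higher and 825 lower. That class held 2179 of 2874 cells from cluster 3 in sham and 460 of 540 from cluster 5, which is led by Atf3, Socs3 and other immediate early genes, in Foxo1cKO PNX. Of 27 immediate early genes measured in clusters 3, 4 and 5 together, 4 were higher and 3 lower, with a median log2 ratio of -0.11. Of 26 heat shock chaperones 8 were lower and 0 higher, and M3cKO PNX stood apart from the other libraries. Hspa1b was at 446 CPM for sham, 138 for WT PNX, 1356 for M3cKO PNX and 168 for Foxo1cKO PNX, and its near-identical copy Hspa1a, with which reads may be shared, at 217, 81.6, 643 and 95.8. Hspb1 was at 416, 196, 448 and 155 CPM and the constitutive chaperone Hspa8 at 2005, 1515, 3085 and 1014. Of 20 measured glucocorticoid-responsive genes 12 were lower and 5 higher, with a median log2 ratio of -0.73, beside -0.46 in WT PNX and 0.31 in M3cKO PNX. Klf9, Tsc22d3, Cdkn1a, Ddit4 and the clock gene Per1 were among the lower members, and all of them but Per1 are also on the FOXO list. The 5 higher members were Fkbp5, Sgk1, Mt1, Mt2 and Rgcc. Fkbp5 was at 13.2 CPM in sham and 21.8 in Foxo1cKO PNX, and Sgk1 at 419 and 700. Per1 was at 110.4, 56.6, 153 and 44.4 CPM. Of 13 measured clock genes 5 were lower and 1 higher, the latter the repressor Cry1 at 10.2, 26.4, 40.8 and 21.0 CPM. The time of day of tissue collection is not given in the sources used here.

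Of 32 measured angiocrine and pro-fibrotic factors 11 were higher and 5 lower, of 23 tip cell and sprouting genes 8 and 5, of 27 genes of the BMP, activin and TGF-beta pathway 6 and 4, and of 24 cytokines and chemokines 4 and 7. Bmp4, a ligand of bone morphogenetic protein receptors, was at 93.6, 184, 55.0 and 214 CPM, 2.28-fold (2.12 to 2.46) above sham, and its relative Bmp6 at 773, 445, 319 and 436, 1.77-fold (1.71 to 1.84) below. Bmp4 was high in WT PNX and Foxo1cKO PNX, while Bmp6 was low in all 3 PNX libraries. Igfbp3, an insulin-like growth factor binding protein, was at 10.0, 9.93, 14.8 and 54.8 CPM, with 18.6% of its Foxo1cKO PNX UMIs in 1 cell. Igfbp3 was also a leading gene, with Prnd and Fabp4, of the unnamed cluster 9, which held 45 sham and 180 Foxo1cKO PNX cells. The part of that cluster in the Igfbp3 levels was not tested. Of 18 measured VEGF and angiopoietin genes 0 were higher and 1, Angpt2, was lower by 1.5-fold, and of 16 Notch genes 1 was higher and 0 lower. Rhoj, the GTPase in the series title, was at 314 CPM for sham, 264 for WT PNX, 322 for M3cKO PNX and 248 for Foxo1cKO PNX, 1.26-fold (1.20 to 1.33) below sham. Of 31 measured genes of the Rhoj and Cdc42 branch 2 were higher and 3 lower, with the effector gene Cdc42ep4 at 154, 97.7, 198 and 81.4 CPM. Of 73 measured nuclear genes of oxidative phosphorylation 2 were higher and 2 lower.

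**Figure D5:**
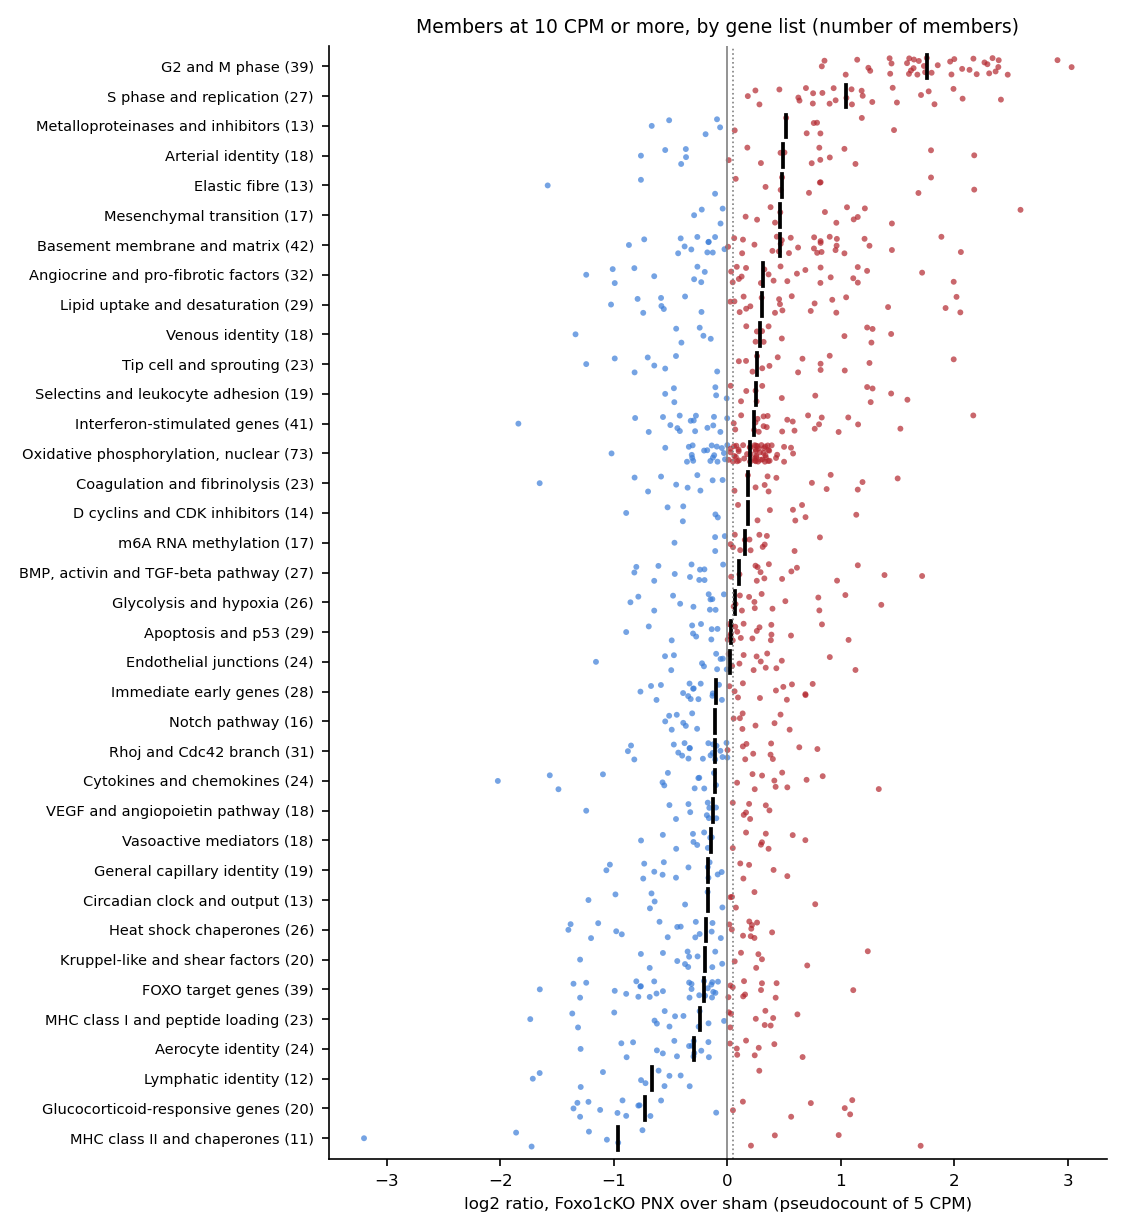
Log2 ratio of Foxo1cKO PNX to sham (horizontal axis, pseudocount of 5 CPM) for each measured member of the 37 endothelial gene lists, 1 point a gene, with list medians as black ticks and the median over all measured genes as a dotted line. Cell cycle lists lie highest, in part because 30 of 39 G2 and M phase genes reached 10 CPM in Foxo1cKO PNX alone, and the MHC class II, glucocorticoid-responsive and lymphatic lists lie lowest.

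Markers of other cells in the endothelial sums gave the following totals. Erythroid markers summed to 5.15 CPM in sham and 110.0 in Foxo1cKO PNX, neutrophil markers to 35.8 and 66.0, and monocyte and macrophage markers to 114 and 164. T and NK cell markers summed to 84.6 and 110.2 CPM. B cell markers summed to 424 and 360 CPM, although 6 of the 8 measured were higher and 1 lower, with a median log2 ratio of 0.90, and 3 of the 8 reached 10 CPM in Foxo1cKO PNX alone. Pericyte and smooth muscle markers were at 78.3 and 77.8 CPM, and alveolar type 2 markers at 441 and 309.6. A cluster led by the epithelial genes Ager, Cldn18 and Sftpc (214 sham and 303 Foxo1cKO PNX cells) had a median of 4919 UMIs per cell and passed the gate. Without it, the rule of 2-fold at 50 CPM gave 114 higher and 90 lower genes.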

How the data were processed

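The authors deposited unnormalized counts of UMIs for every gene in each barcode of 4 libraries. Per the submitters' processing notes, reads were processed with Cell Ranger 2.1.1 against mm10, while the file headers name software version 3.0.0. Members and gene lists were chosen with earlier results of these data known. UMIs of gated cells were summed per library and scaled to CPM with NumPy 2.4.6 and pandas 2.3.3 under Python 3.11.15. Each group was 1 library, so no test was run, and exact Poisson and binomial intervals (SciPy 1.17.1) cover counting error only. Sums held 6492399 to 13691550 UMIs, and 3 counts equalled 0.219 to 0.462 CPM. Named genes were the 14 per direction with the largest ratios that passed the rules in the text, list members at 20 CPM or more, and genes said to be chosen after their values were seen. A few genes that met these rules are not reported here. Cells of sham and Foxo1cKO PNX were clustered with scanpy 1.11.5 (Leiden, resolution 1, 2000 variable genes, 40 components, 20 neighbours) and named from at least 3 markers. After the data were seen, clusters led by a marker of another cell type were left unnamed. Doublets stayed in, since Scrublet's own threshold marked 0 and 1 cells, and an alternative removed 464 and 608 cells by score. Scaling alternatives used edgeR 4.0.16 and DESeq2 1.42.0 in R 4.3.3. The scripts were tested on simulated data. Coordinates follow GENCODE on mm10, and promoters are from RefSeq GRCm38.p6.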

Additional observations from a re-analysis of the deposited data

How the results depend on the processing

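No paired analysis was possible because each group was 1 library. With minimums of 20 CPM, 100 CPM and none, 234, 40 and 3385 genes were at least 2-fold higher and 148, 55 and 1833 lower. Without the limit on Ptprc, Epcam, Col1a1 and Col1a2, 160 were higher, in Y-only cells 166, and in aerocyte-like cells 49. Under TMM and DESeq2 scaling 76 were higher in both and 107 and 109 lower, so that higher genes made up 41.5% and 41.1% of those called, against 50.6%. The Foxo1 log2 ratio was -1.59 at 5% mitochondrial UMIs, -1.01 without the marker limit, -0.49 in Y-only cells, -1.69 in general capillary-like cells, -1.88 in aerocyte-like cells, -1.85 in clusters 3, 4 and 5, and -1.58 as a mean over cells. The cycling share of Foxo1cKO PNX was 4.15% at 5% mitochondrial UMIs, 9.12% at 1000 genes per cell, 11.1% in Y-only cells, 3.70% in general capillary-like cells, 0.842% in aerocyte-like cells, 4.06% without the proliferating-like cells, 3.42% in clusters 3, 4 and 5, and 3.31% with clusters weighted to sham. The share of sham was 1.01% at 5% mitochondrial UMIs, 0.174% in general capillary-like cells, 0.160% in aerocyte-like cells, 0.237% without the proliferating-like cells, and 0.165% in clusters 3, 4 and 5. Directions turned in single classes, and the cause was not tested. In general capillary-like cells log2 ratios were 0.33 for Fibin, -0.59 for Gja5, 0.15 for Reln, 0.13 for Mmrn1, 0.29 for Hspa1a, and -0.14 for the arterial median. That class was mostly cluster 3 in sham and cluster 5 in Foxo1cKO PNX. In aerocyte-like cells they were 0.033 for Mmrn1, -0.18 for Fbln5, 0.21 for Esm1, 0.35 for H2-DMa and 0.28 for H2-Aa. Esm1 and H2-DMa were under 10 CPM there in both libraries. The MHC class II median in aerocyte-like cells was 0.23 over the genes measured in the whole library. Over the 6 members that reached 10 CPM in that class it was -0.38, with 3 lower and 1 higher, so the list did not turn under that minimum. In clusters 3, 4 and 5 they were 0.11 for Fibin and 0.0067 for Mmrn1. The alternatives without cluster 2, without clusters 10, 12 and 13, and in clusters 3, 4 and 5 were chosen after seeing the data. Depth limited genes under the CPM of 3 counts, and 1 library a group left the spread between animals unmeasured.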
